A study of Mus musculus with 6 samples.

Results

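Macrophages grown in culture from mouse bone marrow (BMDMs) and given lipopolysaccharide (LPS) for 2 h were compared with untreated BMDMs, in 4 of the 6 RNA-seq libraries of the series (2 per group). All cells were from C57BL/6 mice and had been differentiated in medium conditioned by L929 cells, a fibroblast line that secretes the macrophage growth factor M-CSF. The LPS group received 100 ng/ml LPS and no drug, and the untreated group received neither. The remaining 2 libraries came from BMDMs that received metformin (5 mM, 6 h) ahead of the LPS. They entered no contrast, only the estimate of the spread and the reference of the rescaling described below. The labels give neither the age nor the sex of the mice and do not say whether both libraries of a group came from separate animals or cultures, so the p-values below measure the spread between these libraries, which may be technical. The values are TPM (transcript abundance scaled to a common library total), that is, a share of the library corrected for gene length. Genes that reached 1 TPM in at least 2 of the 4 libraries were kept, which left 12511 of 54532 listed genes.

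LPS, an outer-membrane component of Gram-negative bacteria, is handed by CD14 to the receptor TLR4 and its partner MD-2. At the plasma membrane TLR4 signals through the adaptor MyD88 to the kinases that release NF-kappaB and activate MAP kinases, and from endosomes it signals through the adaptor TRIF to IRF3, which switches on the interferon-beta gene. Secreted interferon then acts back on the cells through its receptor. Among the first transcripts to be made are cytokines and chemokines that alert other leukocytes, and also inhibitors that end the signal.

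LPS raised 474 of the 12511 genes and lowered 302 (3.79% and 2.41% of all tested genes). Counted were genes whose mean log2(TPM + 1) moved by 2 or more, with a Benjamini-Hochberg adjusted p-value from limma below 0.01. In what follows, "rose" and "fell" are used of genes past both cut-offs, and other genes are given by their values. The raised genes were scarce before stimulation, with a median of 5.57 TPM, and reached a median of 77.7 TPM. Of the 474, 138 averaged under 1 TPM in untreated BMDMs and entered the comparison through the LPS libraries, so a difference was built into their selection. The lowered genes started at a median of 20.3 TPM and ended at 2.85 TPM. Together the raised genes took 1.03% and 1.04% of all TPM in the untreated libraries and 17.2% and 17.5% in the LPS libraries, whereas the lowered genes went from 1.56% in both untreated libraries to 0.222% and 0.224%. The LPS and untreated pairs did not overlap in any of the 776 genes, nor in 92.6% of all tested genes, so the absence of overlap says little about a gene here. In bulk libraries, fewer cells of a kind and less RNA per cell cannot be told apart.

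**Figure D1:**
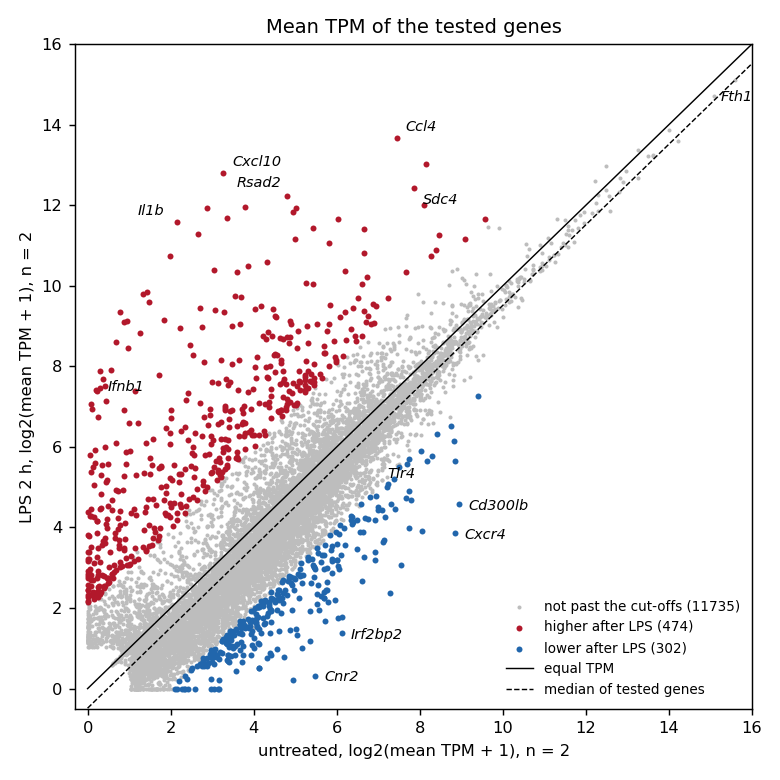
Each point is a tested gene at its log2(mean TPM + 1) in untreated BMDMs (x axis, n = 2) and after LPS for 2 h (y axis, n = 2), in red where it rose (474 genes) and in blue where it fell (302 genes). The solid line marks equal TPM and the dashed line the median of all tested genes (log2 fold change -0.49), along which the bulk of the grey points lies.

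TPM sum to the same total in every library, so what some transcripts gain the others must lose. Over all tested genes the median was -0.49 on the log2 scale. Each library was then divided by its median ratio to the geometric mean of all 6 libraries, those with metformin included. The factors were 1.28 and 1.29 for the untreated and 0.891 and 0.886 for the LPS libraries, which moved this median to -0.02. On that scale 665 genes rose (5.32% of all tested genes) and 128 fell (1.02%). All of the 474 raised genes also rose on the rescaled values, joined by 191 others, while 128 of the 302 lowered genes fell on both scales and 174 fell only in TPM as deposited. At the adjusted p-value alone, 2059 genes were higher and 7726 lower as deposited, against 3927 and 3577 after rescaling. The amount of RNA per cell was not measured, so the data cannot tell which scale is closer to the number of molecules. Exact permutation over 2 libraries against 2 cannot give a two-sided p below 0.333, so every call rests on the spread that limma pools over genes. The libraries held between 25457016 and 26893179 reads on genes, as recovered from the TPM values, and 12298 to 12306 genes were at 1 TPM or more in the untreated against 11510 to 11511 in the LPS libraries.

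The genes with the largest increases in log2 fold change encode secreted proteins and a few enzymes and inhibitors. Cxcl10, the interferon-induced chemokine that draws in T cells through CXCR3, stood at 8.41 and 8.86 TPM in the untreated and 6961 and 7310.4 TPM in the LPS libraries, a log2 fold change of 9.53 (SE 0.04, adjusted p = 2.2e-10 in limma) or 826-fold in mean TPM. Il1b, which encodes the precursor of interleukin-1 beta, was at 2.76 and 4.17 TPM in the untreated and 3207 and 2942 TPM in the LPS libraries (887-fold). The pairs of libraries were far apart for both genes. Acod1, the mitochondrial enzyme that makes itaconate, went from 5.62 and 7.02 to 3902 and 3946 TPM. Socs3, an inhibitor of STAT3-coupled cytokine receptors, went from 3.18 and 2.70 to 1637 and 1790.4 TPM. Among those after them by log2 fold change were Ccl7, Il12b, Gbp5, Ccl5 and Ptgs2, between 8.70 for the monocyte chemokine Ccl7 and 8.22 for Ptgs2, the cyclooxygenase of inflammation. Ccl7 had the widest untreated pair among these 10 genes (3.45 and 7.14 TPM) and a standard error of 0.25 against 0.04 for Cxcl10. Rescaling brought the monocyte chemokine Ccl2 into the first 10 in place of Ptgs2 and left the other 9.

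Ranked by the change in TPM, the order was another one, and only Cxcl10 and Acod1 stood in the first 10 of both lists. Ccl4, a chemokine that attracts monocytes and T cells, gained most. It was at 178 and 168 TPM in the untreated and 12909.7 and 12929 TPM in the LPS libraries, which made it one of the most abundant transcripts of the stimulated cells, and its gain of 12747 TPM came from a 74.9-fold change. Its neighbour Ccl3, a related chemokine, went from 291 and 272 to 8399 and 8342 TPM. Sdc4, a cell-surface heparan sulfate proteoglycan, gained 5273 TPM from an already high 232 and 232 TPM, a log2 fold change of 4.56 (SE 0.04, adjusted p = 1.4e-09 in limma). Rsad2, the antiviral radical-SAM enzyme viperin, went from 27.3 and 26.6 to 4606 and 5002 TPM. Ccl2, Acod1, Tnf, Tnfaip2 and Ifit1 completed the 10, with gains from 3968 TPM for Ccl2 down to 3602 TPM for Ifit1, an RNA-binding antiviral protein. Tnf, the gene of tumour necrosis factor, was at 29.05 and 33.6 TPM in the untreated and 3920.4 and 3914 TPM in the LPS libraries, and Tnfaip2, a TNF-inducible gene, was at 269 and 279 TPM in the untreated and 4059.5 and 4109 TPM in the LPS libraries. In all, 2872 genes gained TPM and 46 of them made up 50% of the summed gain, while 9639 genes lost TPM and it took 293 to make up 50% of the loss. Among the first 50 genes, 23 increases were shared by the 2 orders and 2 decreases were.

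**Figure D2:**
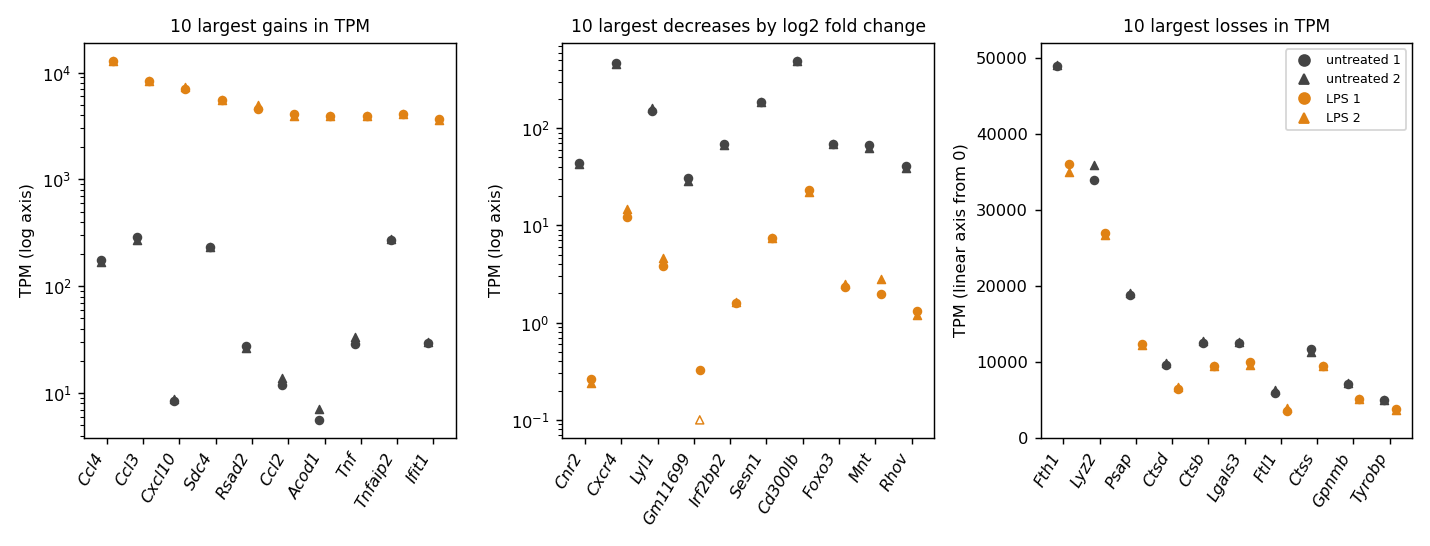
TPM of single libraries (dark symbols untreated, orange symbols LPS, circles replicate 1, triangles replicate 2) for the 10 largest gains in TPM, the 10 largest decreases by log2 fold change (both log axes) and the 10 largest losses in TPM (linear axis from 0). The open triangle is the LPS library in which Gm11699 was listed at 0, drawn at the foot of the axis. Replicates of a group nearly coincide in the first 2 panels, where the groups lie an order of magnitude or more apart, whereas Fth1 in the third moved from 48888 and 49098 to 36001 and 34934 TPM.

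Rescaling replaced 1 of the first 10 gains and most of the first 10 losses, and 38 of the first 50 gains and 14 of the first 50 losses were shared between the scales. Of the first 10 gains in TPM, 9 stayed and Spp1, the gene of osteopontin, entered, going from 5635 and 5792 to 8213 and 7749 TPM. The first 10 losses in TPM as deposited were Fth1, Lyz2, Psap, Ctsd, Ctsb, Lgals3, Ftl1, Ctss, Gpnmb and Tyrobp, which are among the most abundant transcripts of a macrophage: ferritin chains, lysozyme, the saposin precursor, cathepsins, galectin-3 and the adaptor DAP12. Fth1 went from 48888 and 49098 to 36001 and 34934 TPM, which is -0.47 on the log2 scale (limma adjusted p = 7.7e-05) and became 0.06 (limma adjusted p = 0.258) on the rescaled values. Lyz2 had -0.38 and 0.15 on the same pair of scales, Psap -0.62 and -0.09, and Ctss -0.28 and 0.25. Their loss of TPM was thus near that of the median gene. The sign of the log2 fold change turned with the scale for Fth1, Lyz2, Ctsb, Lgals3, Ctss, Gpnmb and Tyrobp. On the rescaled values Fth1 and Ctsb (limma adjusted p = 0.0247) did not reach an adjusted p-value of 0.01. The 10 most abundant transcripts before stimulation were Fth1, Lyz2, Psap, mt-Co1, Ctsb, Lgals3, Ctss, Ctsd, B2m and mt-Cytb, and 2 of them, Ctsd and the mitochondrial mt-Cytb, gave way to Ccl4 and Ccl3 after LPS. After rescaling, the first 10 losses among genes at an adjusted p-value under 0.01 were Cd300lb, Apobec1, Cxcr4, Fnip2, Rab7b, Mfsd12, Plin2, Dhrs3, BC005537 and Plekho1, and each of these was lower on both scales. Psap and Ftl1 had larger differences in rescaled TPM (-895 and -578, against -357 for Cd300lb), at limma adjusted p-values of 0.0697 and 0.0456. Apobec1, the cytidine deaminase that edits apolipoprotein B RNA, went from 669.9 and 679 to 151 and 152 TPM, and Fnip2, a partner of the nutrient sensor folliculin, went from 466 and 453 to 50.8 and 47.4 TPM. Plin2, the coat protein of lipid droplets, went from 1308 and 1320.5 to 715 and 702 TPM, below the fold-change cut-off.

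**Figure D3:**
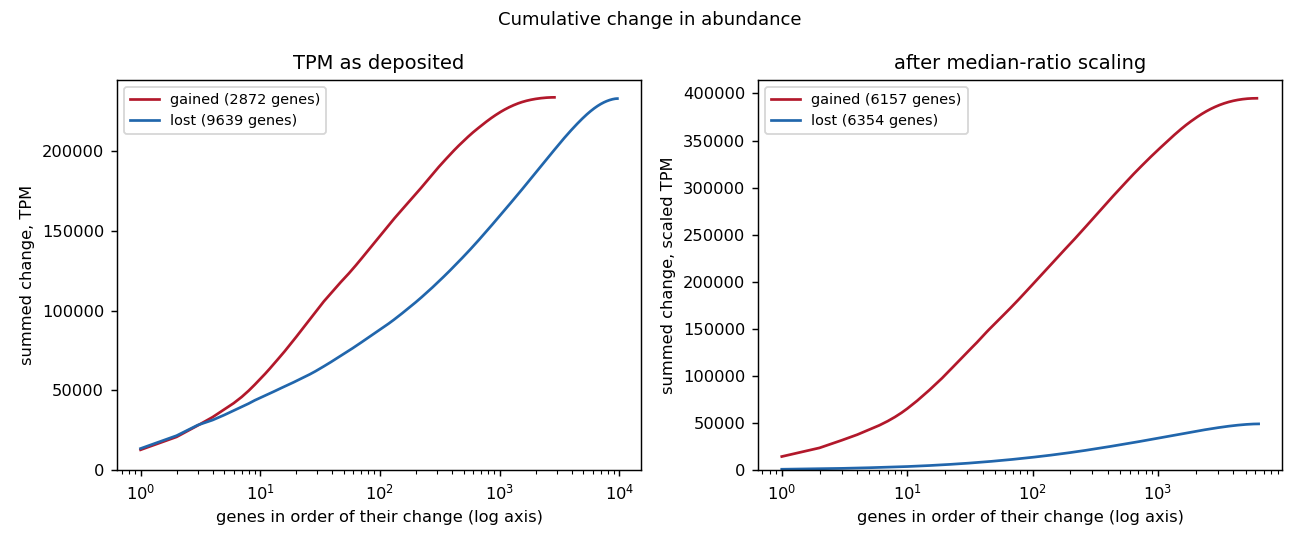
Summed change in abundance (y axis, TPM or rescaled TPM) against the number of genes taken in order of their change (x axis, log scale), for genes that gained (red) and lost (blue). As deposited, gain and loss end at nearly the same height (233803 and 233038 TPM, over 2872 and 9639 genes), and after median-ratio scaling they end at 394892 and 49084 over 6157 and 6354 genes.

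The largest decreases by log2 fold change were in receptors and transcription factors. Cnr2, the cannabinoid receptor of immune cells, was at 44.2 and 42.9 TPM in the untreated and 0.264 and 0.241 TPM in the LPS libraries, a log2 fold change of -5.15 (SE 0.08, adjusted p = 1.4e-08 in limma). Cxcr4, the receptor of CXCL12 that retains leukocytes in bone marrow, was at 471 and 454 TPM in the untreated and 12.2 and 14.7 TPM in the LPS libraries (34.4-fold lower). Both untreated libraries exceeded both LPS libraries by an order of magnitude or more in these receptors. Lyl1, a basic helix-loop-helix factor of blood progenitors, went from 151 and 160.0 to 3.80 and 4.64 TPM, and Irf2bp2, a corepressor that binds IRF2, went from 69.3 and 67.4 to 1.58 and 1.62 TPM. Cd300lb, an activating receptor of myeloid cells, was the most abundant of the 10 at 487 and 495 TPM before and 23.4 and 22.3 TPM after LPS. Sesn1 (a sestrin, which restrains mTORC1), the forkhead factor Foxo3, the MAX-binding repressor Mnt and the small GTPase gene Rhov had log2 fold changes from -4.48 to -4.18. The pseudogene Gm11699 also stood among the 10, on 94 and 83 reads in the untreated and 1 and 0 in the LPS libraries. All 10 fell on the rescaled values too, by -4.77 for Cnr2 to -3.73 for Rhov on the log2 scale.

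The stretch of 150 bases before the start of transcription is shown for 5 genes that rose and 2 that fell, because the motifs of NF-kappaB, interferon-activated factors and AP-1, and the TATA box, fall in it or are missing from it. The sequences are those of RefSeq for GRCm38.p6, read in the direction of the gene, and were chosen after the values of the genes were seen. Capitals mark the NF-kappaB consensus, a pair of interferon response half-sites (GAAANNGAA), the AP-1 site TGANTCA and the TATA box TATAAA, each searched on both strands. The windows are chr5:92348890-92349039 (minus strand) for Cxcl10, chr5:90903749-90903898 (plus strand) for Cxcl2, chr12:55492648-55492797 (minus strand) for Nfkbia, chr19:34640739-34640888 (plus strand) for Ifit1, chr2:129371140-129371289 (minus strand) for Il1b, chr4:135895039-135895188 (plus strand) for Cnr2 and chr8:126593987-126594136 (minus strand) for Irf2bp2.
Cxcl10: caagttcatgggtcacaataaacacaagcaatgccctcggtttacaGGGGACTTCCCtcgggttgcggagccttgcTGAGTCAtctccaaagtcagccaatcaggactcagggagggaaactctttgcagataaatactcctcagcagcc
Cxcl2: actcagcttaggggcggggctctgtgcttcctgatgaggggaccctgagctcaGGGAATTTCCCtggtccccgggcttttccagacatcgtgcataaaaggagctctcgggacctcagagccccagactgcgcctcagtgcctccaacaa
Nfkbia: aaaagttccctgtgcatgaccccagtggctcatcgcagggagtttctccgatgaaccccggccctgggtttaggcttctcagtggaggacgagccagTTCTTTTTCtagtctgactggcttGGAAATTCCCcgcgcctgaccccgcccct
Ifit1: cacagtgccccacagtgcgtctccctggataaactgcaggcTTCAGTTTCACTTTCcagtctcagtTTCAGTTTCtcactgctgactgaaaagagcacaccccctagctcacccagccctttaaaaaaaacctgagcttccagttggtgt
Il1b: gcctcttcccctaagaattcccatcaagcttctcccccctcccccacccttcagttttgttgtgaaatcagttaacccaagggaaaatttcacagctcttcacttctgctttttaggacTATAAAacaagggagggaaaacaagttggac
Cnr2: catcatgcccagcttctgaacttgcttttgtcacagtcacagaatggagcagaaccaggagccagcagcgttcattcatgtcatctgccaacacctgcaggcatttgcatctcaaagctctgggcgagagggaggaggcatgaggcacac
Irf2bp2: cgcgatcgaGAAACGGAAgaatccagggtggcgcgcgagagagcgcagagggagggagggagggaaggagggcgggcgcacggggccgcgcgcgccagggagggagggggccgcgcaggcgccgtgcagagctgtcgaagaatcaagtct
In Cxcl10, 2 overlapping NF-kappaB matches began 104 and 103 bases before the start and an AP-1 match 74 bases before it. Cxcl2 held a match on each strand, at 97 and 96 bases, and Nfkbia an NF-kappaB match at 29 bases beside interferon half-sites at 53 bases. Ifit1 held 3 matches to the paired half-sites on the opposite strand, at 109, 103 and 84 bases, of which the first 2 overlap. The stretch of Il1b had only the TATA box at 31 bases, and that of Cnr2 had none of the 4 motifs. Irf2bp2 held paired half-sites at 141 bases in a window otherwise rich in G and C. The RefSeq start lay 28 bases from the start of the gene in the annotation of the files for Cxcl2, 18 bases for Ifit1 and 205 bases for Cnr2.

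Over the RefSeq promoters from 250 bases before to 50 after the start, which matched 335 of the 423 raised and 203 of the 260 lowered protein-coding genes, the NF-kappaB consensus was present in 20.3% of raised, 11.3% of lowered and 10.2% of all tested genes (8692 promoters). The paired interferon half-sites were in 19.4%, 3.45% and 7.41%, and the AP-1 site was in 13.1%, 7.88% and 4.81%. TATAAA was in 17.0%, 6.40% and 6.56%. The GC box GGGCGG went the other way, with 54.9%, 67.5% and 66.2%, and the median number of CpG pairs was 11 in raised, 21 in lowered and 21 in all tested genes. Among all 32817 RefSeq promoters the shares were 8.46% for NF-kappaB, 8.55% for the half-sites, 7.81% for AP-1, 13.6% for TATAAA and 35.6% for the GC box. A match describes these letters and is not evidence of binding, and the shares were not tested. The raised protein-coding genes had shorter exon sequence (median 3746 bases) than the lowered (4368) or all tested genes (4463), and genes with at most 2 exons made up 11.6% of the raised and 18.5% of the lowered, against 5.15% of all tested genes.

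The tested genes were grouped into 27 classes. The shares of members that rose were largest for the NF-kappaB system, the chemokines, the costimulatory and adhesion molecules and the interferon-stimulated genes, and the shares that fell were largest for the clock genes and the lineage transcription factors. The classes were written with earlier results of these libraries known, so their counts describe the classes. Each class share below stands against 3.79% raised and 2.41% lowered over all tested genes.

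**Figure D4:**
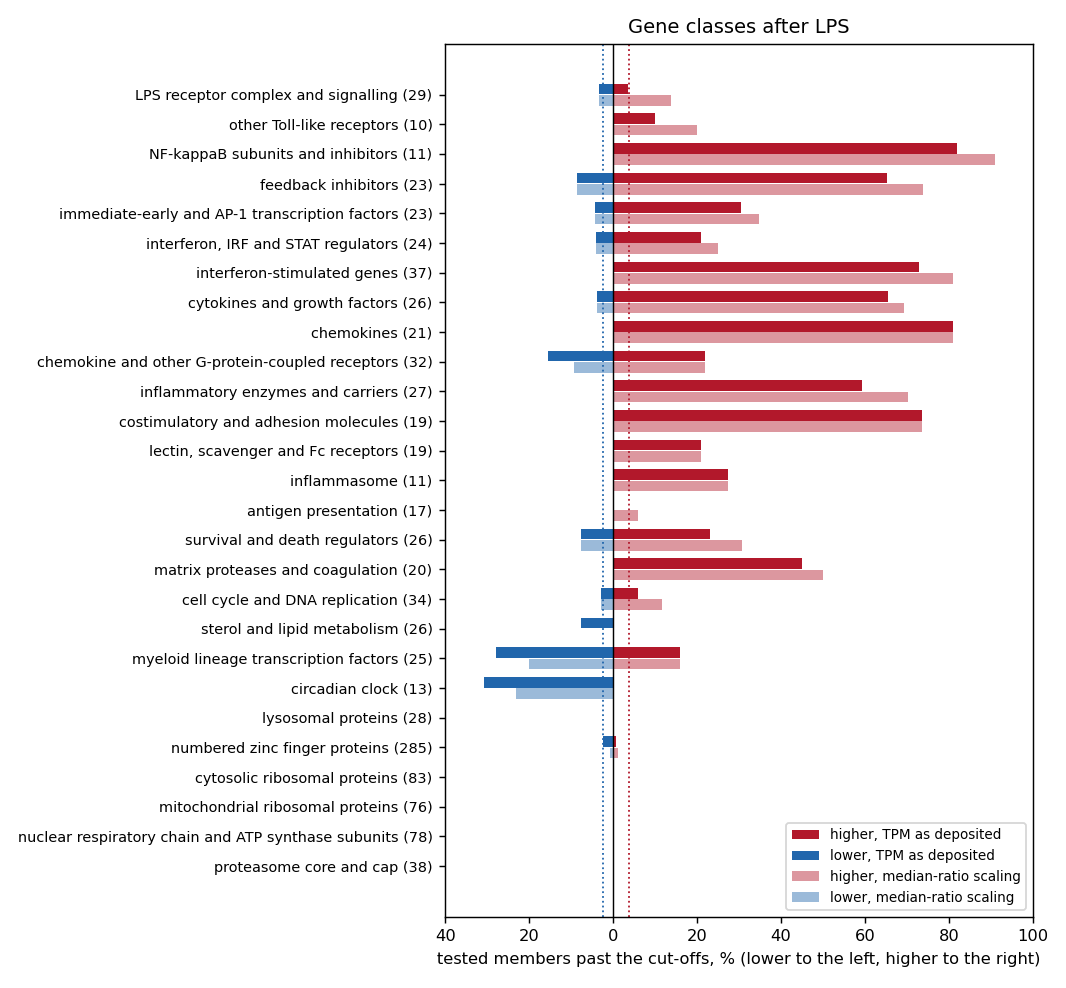
Percent of the tested members of each gene class (number in parentheses) that rose (red, to the right) or fell (blue, to the left) after LPS, in TPM as deposited (full colour) and after median-ratio scaling (pale). Dotted lines mark the shares among all tested genes as deposited, 3.79% higher and 2.41% lower.

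Few genes of the LPS receptor complex and its signalling chain passed the cut-offs. Of 30 listed, 29 were tested (Lbp was not), 1 rose and 1 fell (3.45% each, near the 3.79% and 2.41% over all tested genes). Tlr4 was at 125 and 129 TPM in the untreated and 40.4 and 43.1 TPM in the LPS libraries, or -1.58 on the log2 scale (limma adjusted p = 2.0e-07), and stayed below the fold-change cut-off on both scales. Its coreceptor Cd14 was at 911 and 998 TPM in the untreated and 2639 and 2886 TPM in the LPS libraries and its partner Ly96, which encodes MD-2, at 42.9 and 38.6 TPM in the untreated and 63.05 and 66.4 TPM in the LPS libraries. Both LPS values lay below the untreated values for Tlr4 and above them for Cd14 and Ly96, none of which passed the cut-offs as deposited. Map3k8, the kinase TPL2 that couples the receptor to ERK, was the member that rose (from 19.4 and 17.3 to 130.5 and 136 TPM), and Tab1, a subunit of the TAK1 kinase complex, the one that fell (from 34.3 and 35.9 to 5.16 and 5.06 TPM). The kinase Ikbke and Rnf31, the catalytic subunit of the linear ubiquitin ligase, joined Cd14 and Map3k8 above the cut-off after rescaling, with log2 fold changes of 1.74, 1.70 and 1.53 for Ikbke, Rnf31 and Cd14 as deposited and 2.25, 2.21 and 2.06 rescaled. Of the adaptors, Myd88 had 1.35 and 1.87 on the same pair of scales, and Ticam1, the gene of TRIF, had -0.40 and 0.12, a change of sign. Among 10 tested receptors and chaperones of other Toll-like receptors (Tlr5 was not tested), Tlr2, the receptor of bacterial lipoproteins, rose from 74.2 and 69.6 to 1348 and 1306 TPM. Tlr3, the sensor of double-stranded RNA, rose only after rescaling (log2 fold changes 1.96 and 2.45). Tlr13, which senses bacterial ribosomal RNA, was at 394 and 383 TPM before and 163 and 161 TPM after LPS, and Tlr1, the partner of Tlr2, at 45.7 and 44.2 and then 118 and 112 TPM. Neither passed the cut-off on either scale.

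The NF-kappaB system was called almost whole. Of 11 members 9 rose and none fell (81.8% against 3.79% of all tested genes), with a median log2 fold change of 2.77 against -0.49 over all tested genes. The 4 largest log2 fold changes were in Nfkbiz, Nfkbia, Nfkbie and Bcl3. Nfkbiz, an atypical inhibitor that also coactivates cytokine genes, went from 15.3 and 15.6 to 684 and 681 TPM, and Nfkbia, the gene of the classical inhibitor I-kappaB-alpha, went from 99.2 and 99.6 to 2633 and 2764 TPM. Nfkbie went from 17.9 and 19.1 to 401 and 421 TPM and Bcl3, another nuclear cofactor, from 14.6 and 16.1 to 241 and 264 TPM. Nfkbib rose as well (2.43). The DNA-binding subunits had log2 fold changes of 3.15 for Nfkb2, 2.77 for Rel, 2.55 for Nfkb1 and 2.55 for Relb. Rela, which encodes the subunit p65, was the member with the smallest change, at 143 and 144 TPM in the untreated and 307 and 321 TPM in the LPS libraries. It and Nfkbid, with log2 fold changes of 1.12 and 1.605, were the members below the cut-off as deposited, and Nfkbid passed it after rescaling (2.11).

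Inhibitors of the response rose beside the response. Of 23 feedback inhibitors 15 rose and 2 fell (65.2% and 8.70%, against 3.79% and 2.41% of all tested genes). After Socs3, the largest were Tnfaip3, the gene of the ubiquitin editor A20, which went from 13.7 and 13.6 to 1435 and 1423 TPM, and Dusp2, a phosphatase of MAP kinases, which went from 5.78 and 5.71 to 464 and 542 TPM. Dusp1, the phosphatase that turns off p38 and JNK, went from 18.9 and 20.03 to 443 and 481 TPM. Cish, a further inhibitor of cytokine receptors, went from 0.0820 and 0.174 to 46.9 and 47.4 TPM on 4 and 8 reads before, and Socs1 from 1.58 and 1.06 to 88.04 and 103 TPM. Il1rn, the natural antagonist of the interleukin-1 receptor, went from 21.95 and 21.9 to 317 and 316 TPM. The family of RNA-binding proteins that destabilise AU-rich messages split. Zfp36, the gene of tristetraprolin, rose from 86.2 and 87.9 to 376 and 407 TPM, whereas Zfp36l2 fell from 264 and 262 to 13.7 and 14.2 TPM and Zfp36l1 fell from 67.6 and 63.4 to 6.85 and 6.87 TPM. All 3 changes passed the cut-offs on both scales. Dusp4, by contrast with the other phosphatases, was at 104 and 98.99 TPM in the untreated and 45.1 and 46.4 TPM in the LPS libraries.

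The early transcription factors were split as well. Of 26 listed immediate-early and AP-1 genes 23 were tested (Fosb, Jund and Nr4a2 were not), 7 rose and 1 fell (30.4% and 4.35%). Nr4a3, an orphan nuclear receptor, went from 0.461 and 0.303 to 36.2 and 34.8 TPM, and Maff, a small MAF protein, from 2.84 and 3.01 to 67.2 and 66.03 TPM. Batf, a dimer partner of JUN proteins, went from 7.02 and 7.25 to 72.7 and 68.8 TPM, and Ier3, a stress-response gene, from 8.72 and 10.6 to 86.3 and 91.8 TPM. Junb rose from 122 and 122 to 702 and 743 TPM, but Fos fell from 56.4 and 59.7 to 8.55 and 8.21 TPM, and Jun was at 105 and 102 TPM in the untreated and 25.9 and 31.2 TPM in the LPS libraries. Egr1, often called an immediate-early gene, was at 4.34 and 3.92 TPM in the untreated and 4.07 and 4.95 TPM in the LPS libraries, values whose pairs overlap. Atf3, a repressor of cytokine genes, was abundant before stimulation and stood at 517 and 505 TPM in the untreated and 734 and 771 TPM in the LPS libraries.

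Ifnb1, the interferon-beta gene, was all but absent before stimulation, with 2 and 0 reads in the untreated and 844 and 997 reads in the LPS libraries, where it reached 148 and 182 TPM. Of 24 regulators of the interferon system 5 rose and 1 fell (20.8% and 4.17%). Irf1 went from 38.2 and 35.95 to 1054 and 1073 TPM, Jak2, a kinase of cytokine receptors, from 28.3 and 28.3 to 568 and 551 TPM, and Stat5a from 18.4 and 18.6 to 245 and 259 TPM. Irf7, which amplifies interferon production, was at 33.02 and 31.1 TPM in the untreated and 167 and 198 TPM in the LPS libraries. The factors that carry the first steps did not pass the cut-off as deposited, and 6 of the 24 regulators rose after rescaling. Irf3, the factor that TLR4 activates through TRIF, was at 35.6 and 39.3 TPM in the untreated and 28.9 and 29.9 TPM in the LPS libraries. The sign of its log2 fold change turned with the scale (-0.34 and 0.17). Stat2, which carries the interferon signal, had a log2 fold change of 1.75 as deposited. Irf2bp2, described above, was the member that fell.

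All 37 listed interferon-stimulated genes were tested, 27 rose (73.0%) and none fell, and their summed TPM went from 3921 and 4099.8 to 27809.9 and 29679.6. The median log2 fold change was 3.42. Gbp5, a guanylate-binding protein that acts on intracellular bacteria, had the largest change, from 1.41 and 1.66 to 889 and 891 TPM. It was followed by Rsad2 and Mx1, a GTPase that blocks viruses, at 7.30 and 7.08 TPM in the untreated and 1285 and 1386 TPM in the LPS libraries, and by Ifit1 at 29.7 and 30.2 TPM in the untreated and 3657 and 3606 TPM in the LPS libraries. Isg15, a ubiquitin-like modifier, went from 50.8 and 60.6 to 2134 and 2126 TPM. Replicate pairs of these genes differed by a small part of the distance between the groups. At the other end, Bst2 and Ifitm3, which were already high in untreated BMDMs at 371 and 378 and 2449 and 2590.2 TPM, stood at 442 and 525 and 3088 and 3336 TPM after LPS, below the fold-change cut-off.

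Cytokine genes rose in 17 of 26 tested members (65.4%), and 1 fell (Csf3, Ereg, Lta and Ltb were listed but not tested). The median log2 fold change was 3.02. It was 3.88 with the 3 genes without reads in the untreated libraries set to the level of 3 reads. For these 3 genes the added 1 TPM was left out, so the 2 medians are not the same measure. Il1a, the gene of interleukin-1 alpha, went from 0.933 and 0.283 to 410.4 and 369.7 TPM. Il12b, the shared subunit of interleukin-12 and interleukin-23, was at 0.802 and 0.639 TPM in the untreated and 654 and 637 TPM in the LPS libraries, while its partners were scarce, with Il12a at 3.24 and 2.98 and Il23a at 6.78 and 5.98 TPM after LPS on at most 1 read per untreated library. Il6 went from 0.162 and 0.287 to 182 and 172 TPM, and Il27, the gene of an interleukin-12 family cytokine, from 2.19 and 1.37 to 719 and 816 TPM. Its partner Ebi3 was already present and went from 40.5 and 42.1 to 189.7 and 202 TPM. Tnfsf9, the ligand of 4-1BB, reached 1289.9 and 1322 TPM from 11.01 and 11.3 TPM, and Edn1, the gene of the vasoconstrictor endothelin, reached 198 and 208 TPM on 2 and 7 reads before. Il10, the main anti-inflammatory cytokine of macrophages, rose from 4.52 and 4.16 to 156 and 165 TPM. Csf2, the gene of GM-CSF, was without reads in untreated BMDMs and at 10.2 and 6.51 TPM after LPS, at least 16.4-fold higher against the level of 3 reads per library. Il33, the gene of an alarmin, also had no reads before and 4.14 and 3.80 TPM after LPS, at least 28.2-fold higher. Vegfa, the angiogenic growth factor, was the member that fell (from 43.5 and 37.9 to 5.27 and 5.08 TPM). Igf1, a growth factor that resting macrophages make, was at 190.4 and 192 TPM in the untreated and 170.0 and 166 TPM in the LPS libraries, and Tgfb1 at 198 and 199.8 TPM in the untreated and 156 and 158 TPM in the LPS libraries. The log2 fold changes of both were below 0 as deposited (-0.19 and -0.34) and above 0 after rescaling (0.34 and 0.19).

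Of 23 listed chemokines 21 were tested (Cxcl12 and Cxcl5 were not), 17 rose and none fell (81.0%), and their summed TPM went from 1616 and 1637 to 43916 and 44257. The neutrophil attractants Cxcl1 and Cxcl2 went from 0.772 and 1.12 to 558 and 554 TPM and from 2.16 and 2.97 to 558 and 574 TPM. Ccl5, a chemokine that attracts T cells, went from 8.77 and 9.597 to 3237 and 3294 TPM, and Ccl22, a ligand of CCR4, from 1.75 and 1.02 to 469 and 439 TPM. Ccl9 was abundant in resting BMDMs and rose from 748 and 781 to 3160.1 and 3254 TPM. Ccl6, by contrast, was at 184 and 189.7 TPM in the untreated and 145 and 163 TPM in the LPS libraries, with log2 fold changes of -0.28 as deposited and 0.25 rescaled. Pf4, the platelet factor that macrophages also make, was at 30.5 and 30.6 TPM in the untreated and 42.3 and 38.8 TPM in the LPS libraries.

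**Figure D5:**
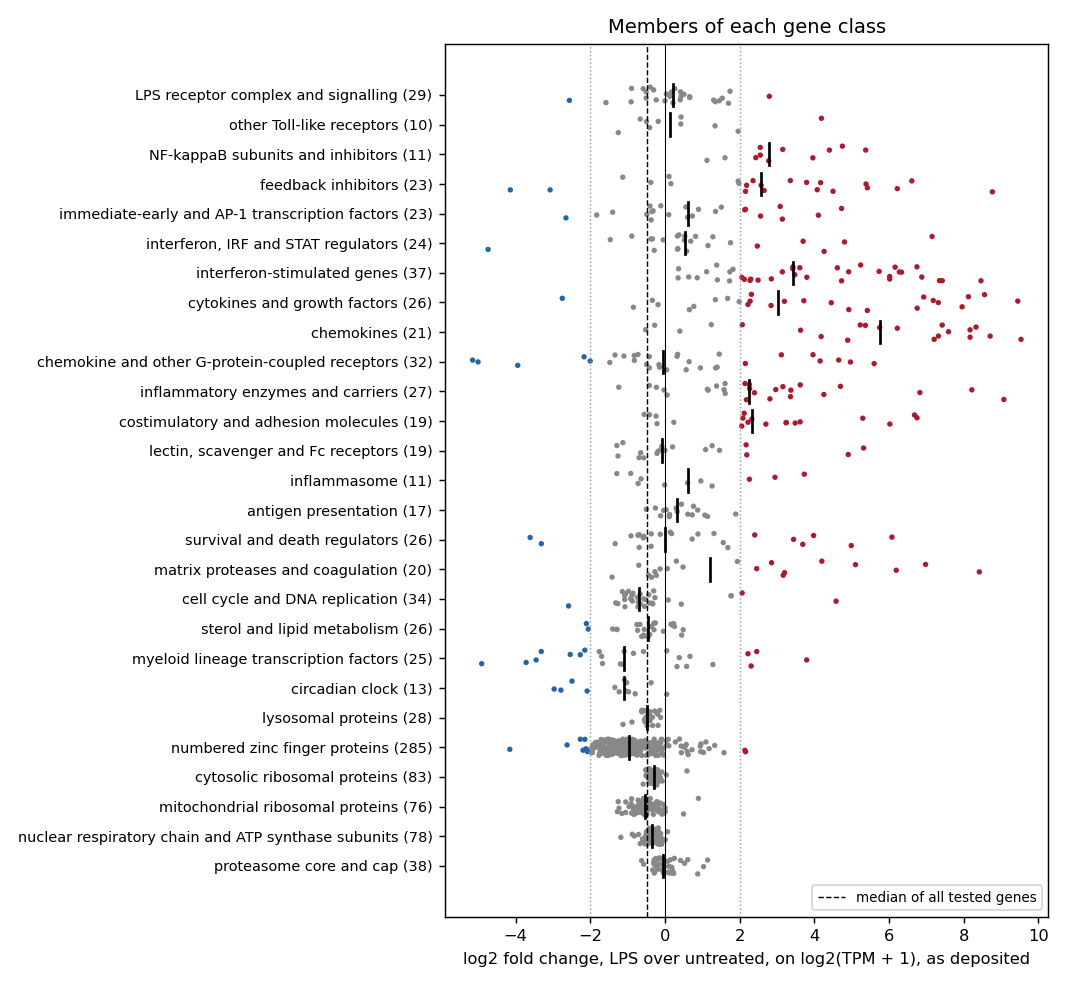
Log2 fold change of each tested member of the gene classes (LPS over untreated, on log2(TPM + 1), as deposited), in red where it rose, blue where it fell and grey otherwise. Black bars are class medians, the dashed line is the median of all tested genes at -0.49, and dotted lines mark the cut-offs. Chemokines reach 9.53 for Cxcl10, receptors spread from -5.15 for Cnr2 to 5.60 for Adora2a, and the classes at the foot stay within the cut-offs apart from 9 of 285 zinc finger genes.

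Receptors for chemokines and other G-protein-coupled receptors went both ways. Of 32 tested, 7 rose and 5 fell, or 21.9% and 15.6% (Adora3, Cmklr1 and Gpr35 were not tested). Adora2a, an adenosine receptor that restrains macrophages, rose from 0.472 and 0.182 to 62.9 and 63.01 TPM, and Ccrl2, which presents chemerin, rose from 20.5 and 21.5 to 685 and 688 TPM. Gpr84, a receptor of medium-chain fatty acids, rose from 1.07 and 0.728 to 46.7 and 46.2 TPM, and Hcar2, the niacin receptor, from 0.954 and 1.52 to 40.9 and 36.1 TPM. Those that fell were Cnr2, Cxcr4, Lpar6 (from 26.96 and 24.5 to 0.705 and 0.761 TPM), Gpr65, an acid-sensing receptor, and S1pr1, the receptor of sphingosine-1-phosphate. Gpr65 and S1pr1 lost the call after rescaling, with log2 fold changes of -2.17 and -2.01 as deposited and -1.65 and -1.49 rescaled. S1pr1 also fell short of it without untreated replicate 2 (-1.999) or LPS replicate 2 (-1.96). C5ar1, the complement C5a receptor, was at 633 and 674 TPM in the untreated and 1233 and 1289 TPM in the LPS libraries.

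Enzymes of inflammatory mediators and of the metabolic switch rose in 16 of 27 tested members (59.3%) and fell in none (Arg1 was not tested). Nos2, the inducible nitric oxide synthase, had 2 and 3 reads in the untreated libraries and 121 and 122 TPM after LPS, and Slc7a2, which imports its substrate arginine, went from 3.41 and 2.70 to 105 and 102 TPM. Ptgs2, the prostaglandin-forming cyclooxygenase, went from 0.603 and 1.10 to 546 and 542 TPM. The hexokinase gene Hk2 went from 26.6 and 26.9 to 146 and 144 TPM, the regulator Pfkfb3 from 16.5 and 16.4 to 134 and 136 TPM and the hexose carrier Slc2a6 from 65.9 and 67.3 to 577 and 627 TPM. Slc2a1, the gene of the glucose carrier GLUT1, was at 30.7 and 29.5 TPM in the untreated and 66.99 and 67.3 TPM in the LPS libraries, below the cut-off. Cybb, the catalytic subunit of the phagocyte oxidase, passed it only after rescaling (1.61 and 2.13). Hmox1, heme oxygenase, was at 668 and 686 TPM in the untreated and 296 and 277 TPM in the LPS libraries, the lowest log2 fold change of the class at -1.24.

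Surface molecules for contact with other cells rose in 14 of 19 tested members (73.7%) and fell in none (the other 2 of 21 listed were not tested). Cd40, through which T cells activate macrophages, went from 5.83 and 5.29 to 707 and 699 TPM, and Icam1, the ligand of leukocyte integrins, from 41.4 and 42.4 to 2766 and 2797 TPM. Cd69, an early activation antigen, went from 0.263 and 0.472 to 134 and 144 TPM, and the adhesion molecule Vcam1 reached 42.3 and 38.4 TPM from 5 and 2 reads. Cd83, a marker of mature antigen-presenting cells, went from 109 and 100.3 to 1213 and 1149 TPM, and Cd274, the gene of PD-L1, from 56.4 and 53.1 to 511 and 547 TPM. The integrin gene Itgb2 was near the median gene, with a log2 fold change of -0.42 as deposited and 0.11 rescaled. Among 19 tested lectin, scavenger and Fc receptors (Cd209a, Timd4 and Trem1 were not), 4 rose (21.1%) and none fell. Clec4e, the receptor Mincle, went from 16.4 and 17.8 to 735 and 704 TPM, and Msr1, the class A scavenger receptor, from 62.5 and 61.4 to 291 and 280.2 TPM. Olr1, the receptor LOX-1 for oxidised LDL, reached 33.1 and 31.6 TPM from 4 and 2 reads, and Fcgr2b, the inhibitory Fc receptor, went from 16.2 and 16.7 to 78.03 and 77.03 TPM. Mertk, which binds apoptotic cells, was at 54.1 and 51.7 TPM in the untreated and 21.1 and 21.8 TPM in the LPS libraries. Cd163, the haemoglobin scavenger receptor, was at 16.8 and 16.5 TPM in the untreated and 6.28 and 6.15 TPM in the LPS libraries, so that both were lower without passing the cut-off.

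Of 11 inflammasome genes 3 rose (27.3%) and none fell. Nlrp3, the sensor, went from 38.3 and 37.2 to 525 and 501 TPM, Casp4, the murine caspase-11 that binds LPS, from 22.7 and 24.6 to 190.4 and 186 TPM, and Mefv, the gene of pyrin, from 0.485 and 0.601 to 6.30 and 6.45 TPM. Casp1, the caspase downstream of the sensors, was at 262 and 267 TPM in the untreated and 514 and 515 TPM in the LPS libraries. Nlrp1b and Nlrc4, other sensors, were lower in both LPS libraries (3.06 and 3.28 against 8.53 and 9.94 TPM for Nlrp1b, 3.94 and 2.98 against 7.95 and 6.88 TPM for Nlrc4) without passing the cut-off. No antigen-presentation gene of 17 passed the cut-offs as deposited, and Tap1, the peptide transporter, passed after rescaling (1.89 and 2.41). After it came Psmb9, a subunit of the immunoproteasome, at 26.2 and 29.7 TPM in the untreated and 58.02 and 67.6 TPM in the LPS libraries, the loading chaperone Tapbp at 305 and 306 TPM in the untreated and 603 and 682 TPM in the LPS libraries and Psmb10 at 127 and 124 TPM in the untreated and 219 and 243 TPM in the LPS libraries. H2-K1, a class I heavy chain, was at 1574 and 1582 TPM in the untreated and 1855 and 2025 TPM in the LPS libraries.

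Survival genes rose in 6 of 26 and fell in 2 (23.1% and 7.69%). Bcl2a1d, a BCL-2 relative induced by NF-kappaB, went from 5.33 and 3.72 to 363 and 372 TPM. Bcl2a1a, with 1 and 2 reads before and 40.9 and 36.3 TPM after LPS, and Bcl2a1b (from 26.4 and 21.9 to 272 and 269.5 TPM) also rose, but the genes are near-identical and reads may have been split among them. Cflar, the gene of the caspase-8 inhibitor c-FLIP, went from 24.98 and 25.3 to 410.0 and 412 TPM, Gadd45b, a stress-induced activator of p38, from 57.03 and 55.9 to 721 and 758 TPM, and Birc3, a ubiquitin ligase of TNF signalling, from 29.9 and 29.2 to 162 and 159 TPM. Those that fell were Bmf, a pro-apoptotic BH3-only protein (from 15.2 and 18.02 to 0.450 and 0.417 TPM), and Gadd45a, a stress-induced gene (from 55.02 and 51.4 to 4.24 and 4.66 TPM). Another BH3-only gene, Bcl2l11, was higher after LPS, at 65.9 and 72.01 TPM in the untreated and 224 and 222 TPM in the LPS libraries. It passed the cut-off only after rescaling (log2 fold changes 1.68 as deposited and 2.20 rescaled). Mcl1 was at 890.2 and 885 TPM in the untreated and 570.4 and 528 TPM in the LPS libraries. Of 20 tested genes of matrix proteases and coagulation 9 rose (45%) and none fell (F13a1, F5 and Mmp9 were not tested). Adamts4, an aggrecan-cleaving protease, had 3 and 1 reads before and 130.3 and 133 TPM after LPS, and Mmp14, a membrane-bound collagenase, went from 0.463 and 0.328 to 45.9 and 47.7 TPM. Mmp13, another collagenase, went from 10.1 and 11.5 to 819 and 900.4 TPM, and Plaur, the urokinase receptor, from 39.2 and 35.9 to 277 and 278 TPM.

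Transcription factors of the myeloid lineage had the largest share of decreases after the clock, 7 of 25 (28%), against 4 increases (16%). Cebpa, a factor of myeloid differentiation, fell from 124 and 115 to 9.12 and 7.23 TPM (log2 fold change -3.72, SE 0.10, adjusted p = 1.5e-07 in limma), and Tfeb, the regulator of lysosomal genes, fell from 53.1 and 52.6 to 4.70 and 4.13 TPM. Both LPS libraries lay about an order of magnitude below both untreated libraries for these factors. The relatives of Tfeb went the other way. Tfec rose from 11.05 and 11.7 to 178 and 162 TPM and Mitf from 35.98 and 37.5 to 184 and 187 TPM, as did the zinc finger factors Gfi1 (from 0.330 and 0.219 to 6.60 and 5.42 TPM) and Ikzf1 (from 47.1 and 47.8 to 222 and 228 TPM). The homeobox factor Hhex fell on both scales as well (from 13.8 and 15.4 to 1.78 and 1.57 TPM), while Fli1 and Bcl6 kept only the deposited call (log2 fold changes -2.27 and -2.15, rescaled -1.76 and -1.63). Spi1, the gene of the macrophage master factor PU.1, was at 456 and 479 TPM in the untreated and 596 and 622 TPM in the LPS libraries, and Pparg, a lipid-activated nuclear receptor, at 112 and 110.1 TPM in the untreated and 33.9 and 34.4 TPM in the LPS libraries, below the cut-off.

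Of 13 clock genes 4 fell and none rose (30.8% against 2.41% of all tested genes). Per1, a repressor of the clock, fell from 16.3 and 16.2 to 1.28 and 1.12 TPM, Bhlhe41 from 70.1 and 65.5 to 8.37 and 9.56 TPM, and the PAR bZIP output factors Dbp from 10.7 and 10.7 to 0.966 and 1.19 TPM and Tef from 37.4 and 40.3 to 8.85 and 7.93 TPM. Tef lost the call after rescaling (-1.59). Of the activators, Clock was at 18.1 and 17.5 TPM in the untreated and 18.9 and 17.9 TPM in the LPS libraries. Arntl, the gene of BMAL1, was at 5.45 and 5.73 TPM in the untreated and 2.34 and 2.35 TPM in the LPS libraries. Among 34 cell-cycle genes 2 rose and 1 fell (5.88% and 2.94%, near the 3.79% and 2.41% over all tested genes). Ccnd2, cyclin D2, rose from 2.74 and 2.63 to 85.9 and 88.2 TPM and E2f8 from 8.14 and 7.18 to 36.1 and 34.3 TPM, while E2f2 fell from 13.3 and 15.4 to 1.48 and 1.63 TPM. E2f8 had a log2 fold change of 2.06 that became 1.98, under the cut-off, without untreated replicate 2. Mki67, the proliferation marker, was at 60.3 and 60.5 TPM in the untreated and 222 and 195 TPM in the LPS libraries, and Cdk6, a kinase of the entry into the cycle, at 24.5 and 22.6 TPM in the untreated and 82.5 and 83.00 TPM in the LPS libraries. Both passed the cut-off after rescaling only. The median of the class was -0.69, or -0.19 rescaled. By the adjusted p-value alone, 27 of the 34 were lower and 5 higher as deposited, against 14 lower and 6 higher after rescaling. None of 26 sterol and lipid genes rose, and 2 fell (7.69% against 2.41% of all tested genes). Abcg1, the exporter of cholesterol to HDL, fell from 343 and 343 to 74.9 and 82.8 TPM and the desaturase Scd2 from 78.4 and 82.2 to 19.1 and 18.04 TPM, and neither kept the call after rescaling (-1.58 and -1.54). Mylip, which degrades the LDL receptor, and the cholesterol-synthesis enzyme Lss followed with log2 fold changes of -1.40 and -1.30.

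No housekeeping class had a member past the cut-offs. None of 28 lysosomal genes, 83 of 85 listed cytosolic ribosomal protein genes, 76 of 77 mitochondrial ribosomal protein genes, 78 of 84 nuclear genes of the respiratory chain and ATP synthase or 38 of 39 proteasome genes tested passed the cut-offs on either scale. Of the ribosomal protein genes, 67 were lower and none higher at the adjusted p-value alone as deposited, and 53 were higher and none lower after rescaling. Some of these genes share reads with processed pseudogenes and held few counted reads, such as Rpl24 with 6 and 5 in the untreated and 16 and 9 in the LPS libraries. The lysosomal genes had 27 lower as deposited and 8 higher and 2 lower after rescaling. The sialidase Neu1 had the largest change of the lysosomal class, at 129 and 136 TPM in the untreated and 57.8 and 62.4 TPM in the LPS libraries, followed by the cholesterol transporter Npc1 at 180.1 and 179.9 TPM in the untreated and 98.7 and 95.4 TPM in the LPS libraries, and these were the 2 that were lower on both scales. For the respiratory chain 56 were lower as deposited, Atp5s with -1.18 the furthest, against 35 higher and 2 lower after rescaling. The mitochondrial ribosomal proteins had 58 lower and 2 higher, Mrpl43 with -1.28 the furthest, against 15 lower and 14 higher after rescaling. Proteasome genes lay above the median gene, with a median log2 fold change of -0.07 as deposited and 0.46 rescaled, and Psma6, a subunit of the core, was at 243 and 248 TPM in the untreated and 513 and 491 TPM in the LPS libraries. The numbered zinc finger proteins, most of them DNA-binding repressors, had medians below that of all tested genes (-0.49 and -0.02) on both scales. Of 365 listed genes 285 were tested, 7 fell and 2 rose. The 7 are 2.46% of the class, near the 2.41% over all tested genes. Voom on recovered reads counted 57 lower and 3 higher, and with median-ratio scaling 23 lower and 6 higher. The median log2 fold change was -0.97 as deposited and -0.57 rescaled, with 235 and 175 of them lower at the adjusted p-value alone. Zfp395 fell furthest (from 35.6 and 34.6 to 0.999 and 1.04 TPM), followed by Zfp652 (from 17.9 and 18.5 to 2.13 and 2.10 TPM), and these were the 2 that also fell after rescaling. Zfp251 and Zfp316 came next, with log2 fold changes of -2.27 and -2.20, while Zfp36 and Zfp800 (from 18.4 and 17.9 to 83.05 and 83.4 TPM) were the 2 that rose. Zfp36 was taken in by its symbol and was also counted among the feedback inhibitors above.

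Some of the raised genes lie side by side. Runs of at least 3 neighbouring tested genes that were all called in the same direction numbered 19, of which 18 were of raised genes and held 65 of the 474. The longest held 7 genes of the interferon-inducible Ifi200 family on chromosome 1 (173747293 to 174031810, GRCm38, from Ifi204 to Ifi205). On chromosome 19 (34550694 to 34650009) Ifit2, Ifit3, Ifit1bl1, Ifit3b and Ifit1 rose together, and on chromosome 3 (142493978 to 142638008) Gbp5, Gbp7, Gbp3 and Gbp2 rose beside a microRNA gene. Chemokines formed 4 such runs, namely Ccl2, Ccl7, Ccl12 and Ccl8 on chromosome 11 (82035571 to 82116799), Cxcl3, Cxcl1 and Cxcl2 on chromosome 5 (90786103 to 90905938), Cxcl9, Cxcl10 and Cxcl11 on the same chromosome (92321347 to 92365485), and Ccl22, Cx3cl1 and Ccl17 on chromosome 8 (94745590 to 94812036). Reads of related neighbours may be shared between them. The lowered run held Engase, Cbx2 and Cbx8 on chromosome 11, and it was no longer a run after rescaling, where Cbx2 and Cbx8 were under the cut-off (-1.70 and -1.85). Cbx2 had a log2 fold change of -2.02 as deposited that became -1.99 without LPS replicate 2.

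The cells carried the markers of macrophages in both states. All 10 macrophage markers were expressed, from 33981 and 35844 TPM for Lyz2, the gene of lysozyme, in the untreated libraries down to 54.1 and 51.7 TPM for Mertk. Adgre1, an adhesion receptor of mature macrophages, was at 1510.3 and 1575 TPM in the untreated and 1749.7 and 1684 TPM in the LPS libraries. Markers of other cells were scarce. Summed TPM were 26.7 to 32.8 for 9 neutrophil markers, with Ly6g and Retnlg at 0, 2.63 to 3.18 in the untreated and 1.47 to 1.56 in the LPS libraries for 5 B-cell markers, at most 0.270 for 6 T- and NK-cell markers, 0.652 to 0.771 in the untreated and 2.39 to 2.70 in the LPS libraries for 5 dendritic-cell markers, 0.409 to 0.662 for 6 stromal markers, at most 0.365 for 6 erythroid markers and 1.67 to 2.04 for 4 megakaryocyte markers. The sum of 4 mast-cell markers was 20.6 to 21.1 in the untreated and 8.18 to 8.31 in the LPS libraries, and Kit, the stem cell factor receptor, made up most of it (19.5 and 19.7 TPM in the untreated and 7.92 and 8.00 TPM in the LPS libraries). The part of these cells in the results was not tested.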

How the data were processed

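RNA-seq of BMDMs from C57BL/6 mice was analysed for the untreated and LPS groups. The authors deposited TPM for 54532 genes per library, made from single-end reads of poly-A RNA. The submitters' processing notes name STAR 2.6.1d, SAMtools 1.9, featureCounts from Subread 1.6.3 and GRCm38, and how counts became TPM is not given in the sources used here. Replicates were not pooled.

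The 12511 genes that reached 1 TPM in 2 or more of the 4 libraries were tested with limma 3.58.1 (R 4.3.3) on log2(TPM + 1), using the 6 libraries of the series together, a mean-variance trend, 3 residual degrees of freedom and Benjamini-Hochberg adjustment over these genes. This scale understates the change of scarce genes. Cut-offs were an absolute log2 fold change of 2 and an adjusted p-value of 0.01. Multiplied by exon length (GENCODE, GRCm38, matched for 54495 genes), 96.0% to 96.2% of the TPM values above 0 were whole multiples of a common step within 0.01, which was taken as 1 read, giving 25457016 to 26893179 reads per library. Floors of 3 reads cover counting error only.

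Alternatives were median-ratio scaling, another pseudocount (0.1), the unfiltered table, a minimum of 5 TPM, the 4 libraries alone, the replicate number as a block, voom on recovered reads with and without that scaling, a log2 cut-off of 1, and each library left out in turn. Libraries of the same replicate number, titled A or B, showed no shared shift (Pearson's r of their deviations 0.00, across genes). With 1 replicate difference per group this cannot settle whether the libraries were paired. Named genes were the 10 largest changes in each direction by log2 fold change and by TPM, on both scales, the 10 most abundant, and members of 27 classes, those with the largest changes first. Others were chosen after their values were seen. Some items that this rule names are not reported here. Members and classes were chosen with earlier results of these data known. The fit was tested on simulated reads with known changes in well-covered genes, as many up as down. That simulation covers neither changes in scarce genes nor the choice between the scales. Tables and plots used Python 3.11.15, numpy 2.4.6, pandas 2.3.3 and matplotlib 3.10.9.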

Additional observations from a re-analysis of the deposited data

How the results depend on the processing

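The counts of 776 called, 474 higher and 302 lower genes stayed within 1.5 times under no filter (766 called), a minimum of 5 TPM (731), the 4 libraries alone (778) and the replicate number as a block (778, 475 higher and 303 lower), and leaving out each library in turn gave 769 to 806 called, 468 to 486 higher and 292 to 320 lower genes. The block changed no call of a named gene, and libraries of the same number showed no shared shift. Median-ratio scaling gave 793 genes, 128 of them lower. A pseudocount of 0.1 gave 1502 (684 higher, 818 lower) and voom on recovered reads 1579 (699 higher, 880 lower), since both let low values reach larger fold changes. Voom with median-ratio scaling gave 1347 (918 higher, 429 lower), and a fold-change cut-off of 1 gave 3557 (1080 higher, 2477 lower). Of the named genes, the direction turned for 15 under median-ratio scaling, by limma or voom, because all genes moved up together, and their log2 fold changes, below 0 as deposited, became Ccl6 0.25, Ctsb 0.12, Ctss 0.25, Fth1 0.063, Gpnmb 0.047, Igf1 0.34, Irf3 0.17 and 0.18, Itgb2 0.11, Lgals3 0.17, Lyz2 0.15, Tgfb1 0.19, Ticam1 0.12, Tyrobp 0.10, mt-Co1 0.40 and mt-Cytb 0.42. Leaving out 1 library ended the calls of Cbx2, E2f8 and S1pr1 and brought Il12a, Plekho1 and Tlr3 past the cut-off (2.02 to 2.04 in size). With 2 libraries a group, differences near the cut-offs rest on the pooled spread, and 31 called genes averaged under 10 reads per library.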

Other observations

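Some of the largest changes lay outside the classes above, and the genes named here were chosen after their values were seen. Among abundant transcripts, Marcksl1, an actin-linked substrate of protein kinase C, went from 64.00 and 64.8 to 3115 and 3323 TPM, Plek, the gene of pleckstrin, from 363 and 344 to 2475 and 2447 TPM, and Cdkn1a, the cell-cycle inhibitor p21, from 102 and 98.3 to 1813 and 1757 TPM. Sqstm1, the autophagy receptor p62, was at 793 and 804 TPM in the untreated and 2868 and 2767 TPM in the LPS libraries, a log2 fold change of 1.82 that passed the cut-off after rescaling (2.35). Mir155hg, the host transcript of miR-155, had 4 and 3 reads in the untreated libraries and 176 and 185 TPM after LPS. The complement gene C3 rose from 19.7 and 22.04 to 428 and 432 TPM and the acute-phase gene Saa3 from 0.303 and 0.429 to 34.3 and 34.02 TPM. Hspa1b, an inducible HSP70, rose from 1.64 and 2.04 to 37.9 and 40.4 TPM.

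Among the lowered genes, Flcn, the gene of folliculin, fell from 120.1 and 122 to 10.1 and 8.97 TPM beside its partner Fnip2, and Slc40a1, the iron exporter ferroportin, fell from 70.4 and 73.6 to 10.98 and 10.7 TPM. Both kept the call after rescaling (-3.03 and -2.12). Genes of small RNAs made up 29 of the 776 called genes, and 26 of these 29 averaged under 10 reads per library, so that their direction rests on few reads in libraries of poly-A RNA. Without reads in both libraries of a group were 15 raised genes in the untreated and 11 lowered genes in the LPS libraries.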
